A study of Mus musculus with 40 samples.

Results

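The genes described here are 36 endothelial and angiogenic genes, chosen by name for their known roles in the lining of blood vessels, in the growth of new vessels and in the response to low oxygen. No threshold on a measured value entered that choice, but it was made with earlier results of these data known. Of the 36, 34 were matched by symbol to 1 gene each among the 22844 listed in the deposited tables, and all 34 passed the filter on low counts, while Cldn5 and Aplnr were not analysed here. They comprise 5 secreted ligands (Vegfa, Vegfb, Angpt1, Angpt2 and Pdgfb) and 6 receptors (Kdr, Flt1, Flt4, Tek, Tie1 and Eng). A further 8 were grouped as endothelial junction, surface and matrix genes (Pecam1, Cdh5, Esam, Emcn, Robo4, Ptprb, Mmrn2 and Ecscr), and 2 encode other proteins that endothelium secretes (Vwf and Egfl7). The others are 4 transcription factors of endothelium (Erg, Ets1, Sox17 and Sox18), 3 genes of Notch signalling (Notch1, Notch4 and Dll4), 4 genes of caveolae, nitric oxide and lipoprotein handling (Cav1, Cav2, Nos3 and Gpihbp1) and 2 hypoxia-inducible factors (Hif1a and Epas1).

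Every skeletal muscle fiber is served by capillaries, whose endothelial cells are held together by adhesion molecules such as VE-cadherin (Cdh5) and PECAM-1 (Pecam1). Muscle fibers secrete VEGF-A (Vegfa), which binds the receptors VEGFR2 (Kdr) and VEGFR1 (Flt1) on endothelium and whose transcription is known to respond to the hypoxia-inducible factors. Angiopoietin 1 (Angpt1), made by cells around vessels, activates the receptor TIE2 (Tek) and is associated with quiescent vessels, whereas angiopoietin 2 (Angpt2), made mainly by endothelium, can oppose it.

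RNA was sequenced from extensor digitorum longus (EDL), a fast muscle of the mouse hindlimb, in 8 groups of 5 mice. Each mouse gave 1 library, which makes 40. All mice carried floxed alleles of Tsc1, whose product restrains mTORC1, a kinase complex that promotes growth, and the strain label was Tsc1tm1Djk/J throughout. Tsc1fl/fl mice without Cre recombinase were the controls (CON), and in TSCmKO mice Tsc1 was deleted in skeletal muscle fibers. Both genotypes were studied at 3 and at 9 months of age (3mCON, 3mTSCmKO, 9mCON and 9mTSCmKO), each after 3 days of intraperitoneal vehicle or of the mTORC1 inhibitor rapamycin (+RM), at 4 mg per kg by the labels, although the study text gives a higher dose. The deletion was made in muscle fibers, so that endothelial cells kept their Tsc1, and rapamycin was given to the whole animal. In such whole-muscle RNA, fewer cells of a type and less RNA per cell cannot be told apart.

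Libraries held 8883870 to 35224669 counts. Tsc1 lay at 51.3 CPM (counts scaled to library size) or above in all 20 CON libraries and at 35.8 CPM or below in all 20 TSCmKO libraries, without overlap between genotypes. Insert sizes in the labels ran from 175 to 239 nt for the younger mice and from 223 to 308 nt for the older, overlapping little between the ages. Among the markers listed for each cell type, 8 muscle fiber genes summed to 94500 to 182100 CPM per library, and the 7 endothelial markers with a row (Pecam1, Cdh5, Kdr, Tie1, Emcn, Esam and Robo4) to 206 to 564 CPM. The lowest value of any of the 34 genes in any library was 1.38 CPM, and the fewest counts behind a value were 24.

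Compared per length, in TPM (transcript abundance scaled for length and depth), the 34 genes covered a wide range of levels in 3mCON muscle. The highest were Vegfa (271 ± 34.4 TPM, mean ± SD of 5 libraries), Vegfb (212 ± 9.44 TPM), whose product is a VEGF family ligand of VEGFR1, and Cav1 (207 ± 48.5 TPM), the main structural protein of caveolae. They were followed by Epas1 (118 ± 12.0 TPM), which encodes HIF-2α, and Gpihbp1 (67.7 ± 14.1 TPM), which carries lipoprotein lipase to the capillary lumen. Cdh5 and Pecam1 stood at 58.8 ± 14.6 and 54.3 ± 9.87 TPM. The lowest levels were those of Nos3 (7.78 ± 1.24 TPM), Sox17 (6.79 ± 1.41 TPM), Dll4 (6.57 ± 0.915 TPM), Angpt2 (3.61 ± 1.68 TPM) and Flt4 (2.88 ± 0.340 TPM). Neighbours in this order mostly could not be separated, since 30 of 33 neighbouring pairs overlapped between libraries and only Vegfa with Vegfb, Cav1 with Epas1 and Epas1 with Gpihbp1 did not.

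**Figure D1:**
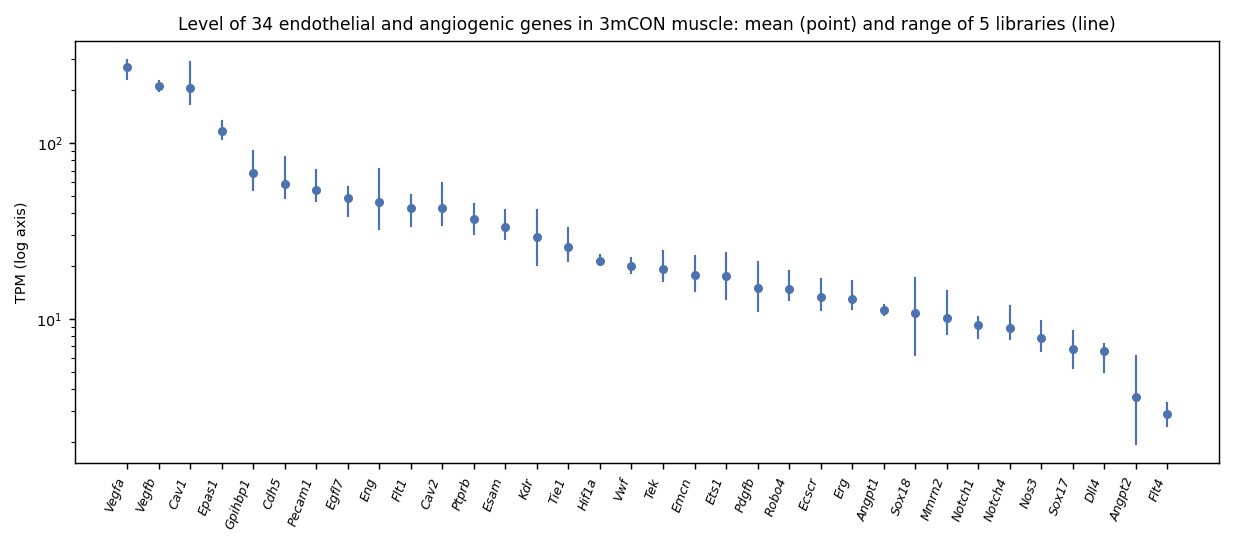
Level of the 34 genes in 3mCON muscle, in TPM on a log axis, with the mean of 5 libraries as a point and their range as a line. Genes are ordered by mean, from Vegfa at 271 TPM to Flt4 at 2.88 TPM, and the lines of most neighbours overlap.

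The 27 genes that are neither ligands nor hypoxia-inducible factors were summed per library to describe their level as a whole, with no test. They include Cav1 and Cav2, and whether these 27 genes are restricted to endothelium in this muscle was not tested. This sum was 1342, 1269, 1246, 1276 and 1802 CPM in 3mCON replicates 1 to 5, the order used for every series of values below, and 1065, 1248, 1200.0, 1255 and 1273 CPM in 3mTSCmKO. It was 1483, 965, 1111, 1135 and 1295 CPM in 9mCON and 1147, 1132, 765, 838 and 843 CPM in 9mTSCmKO. With rapamycin the medians were 1370 CPM in 3mCON+RM, 1182 CPM in 3mTSCmKO+RM, 1054 CPM in 9mCON+RM and 846 CPM in 9mTSCmKO+RM. Thus 3 of 5 9mTSCmKO libraries fell below every 9mCON library, while the other 2 lay within the 9mCON range. The mean sum was 1198 CPM in 9mCON and 945 CPM in 9mTSCmKO. Of these means, Cav1 made up 180 and 101 CPM and Cav2 43.4 and 24.9 CPM. A single library stood well above the rest of its group in 3mCON (replicate 5, 1802 CPM against at most 1342 CPM), in 9mCON+RM (replicate 3, 1569 CPM against at most 1095 CPM) and in 9mTSCmKO+RM (replicate 3, 1261 CPM against at most 1032 CPM), and results that rest on one of these are given with and without it.

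**Figure D2:**
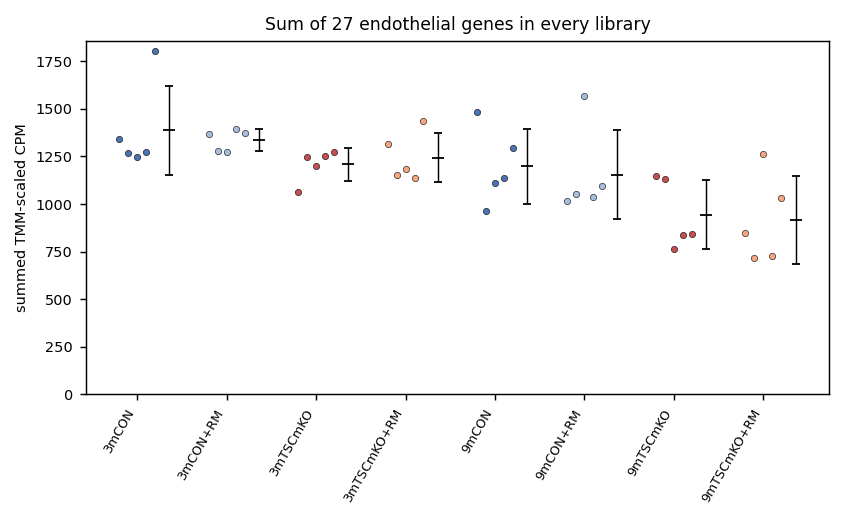
Summed CPM, scaled by the trimmed mean of M-values (TMM), of 27 endothelial genes in each library (coloured points, replicates 1 to 5 from left to right) of the 8 groups, with the mean ± SD of 5 libraries in black. The sum runs from 1246 to 1802 CPM in 3mCON and from 765 to 1147 CPM in 9mTSCmKO.

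The first question was how sustained mTORC1 activity in muscle fibers at 9 months, the age with an overt muscle phenotype, went with these genes. Of the 34 genes, 11 differed between 9mTSCmKO and 9mCON (edgeR, adjusted p under 0.05), 10 lower and 1 higher. The caveolins Cav1 and Cav2, the growth factor Vegfa and the endothelial nitric oxide synthase Nos3 fell most, and Angpt2 rose. The 11 genes are 32.35% of the set, beside 37.9% of all 13543 genes tested, so that the share changed was no higher than the background. Lower genes were 29.4% of the set, beside 18.9% of all genes tested. Fold changes had a median of -0.24 on the log2 scale over the 34 genes, beside -0.022 over all genes, and 28 of the 34 were negative. Below, log2 fold changes are given with their standard errors.

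**Figure D3:**
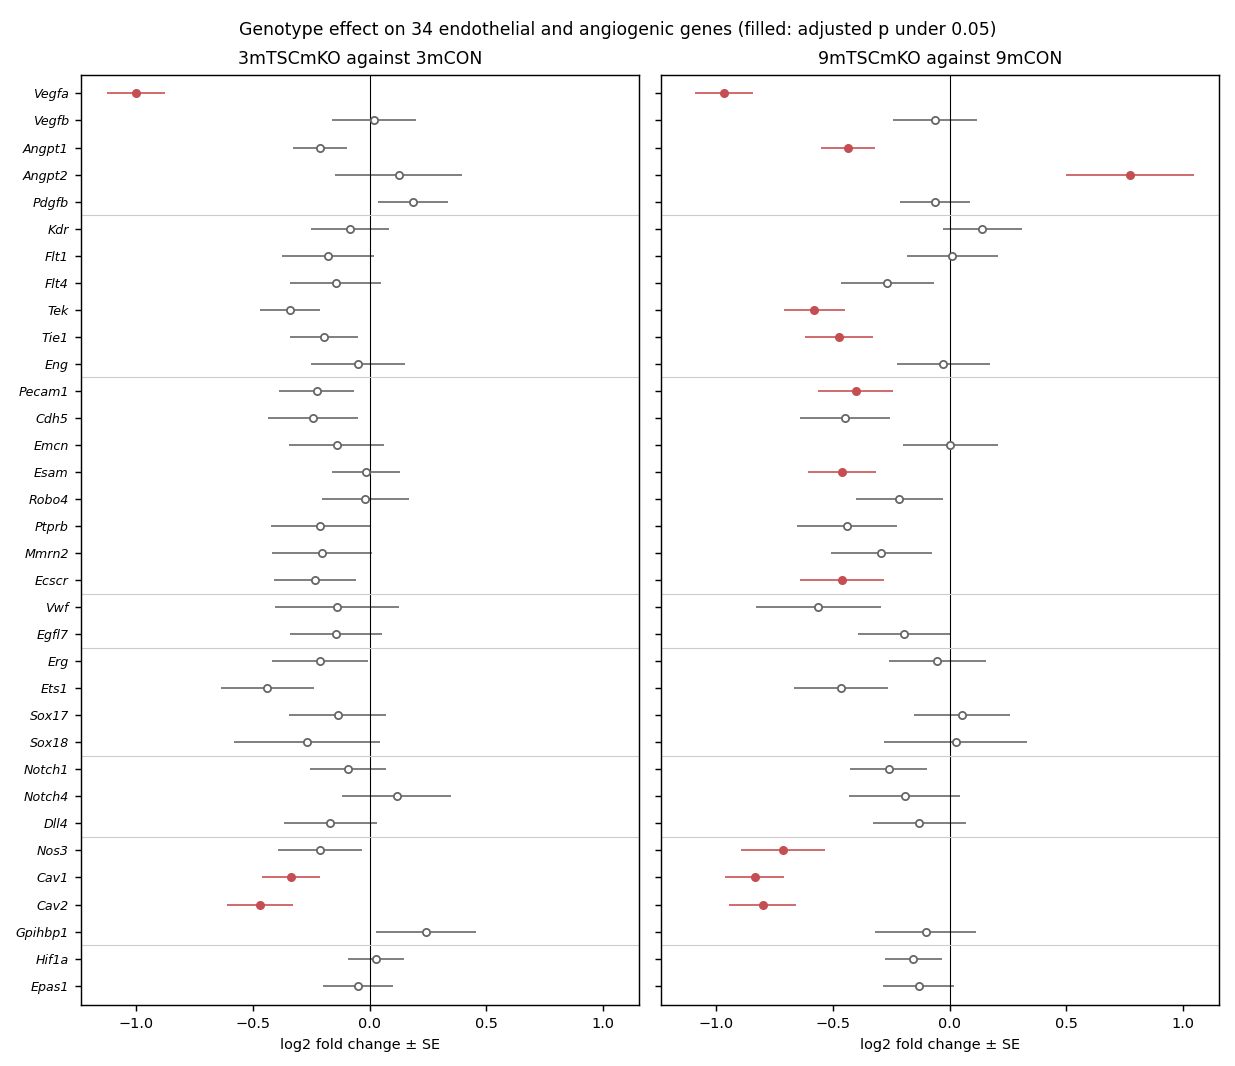
Log2 fold change (point) ± SE (line) of the 34 genes between TSCmKO and CON at 3 months (left) and 9 months (right), ordered by role, with filled red points for adjusted p under 0.05. At 3 months 3 genes are filled and at 9 months 11, of which Angpt2 alone lies to the right of 0.

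Among the ligands, Vegfa (ENSMUSG00000023951, chromosome 17, 46016993 to 46032369 on GRCm38, minus strand) was at 339, 384, 363, 352 and 244 CPM in the 9mCON libraries and at 196, 148, 169, 163 and 185 CPM in the 9mTSCmKO libraries. The highest 9mTSCmKO library lay below the lowest 9mCON library, and the fall was 1.95-fold (-0.97 ± 0.12, adjusted p = 6.45e-08). Angpt2 (ENSMUSG00000031465, chromosome 8, 18690263 to 18741562) was at 6.67, 3.92, 2.76, 3.17 and 3.72 CPM in 9mCON and at 11.4, 6.24, 4.75, 4.79 and 7.44 CPM in 9mTSCmKO. It was 1.71-fold higher (0.77 ± 0.27, adjusted p = 0.0245), although 9mCON replicate 1 reached into the 9mTSCmKO range. This call was lost without 9mTSCmKO replicate 1, the highest library, and without 9mCON replicate 3 or 4, where the log2 fold change was 0.53 to 0.69 (adjusted p = 0.0656 to 0.133), and when only both groups were fitted (0.80, adjusted p = 0.0762). Angpt1 (ENSMUSG00000022309, chromosome 15, 42424723 to 42676977) was at 18.8, 24.1, 29.8, 28.9 and 30.01 CPM in 9mCON and at 17.4, 20.1, 21, 21.1 and 17.9 CPM in 9mTSCmKO, overlapping only through 9mCON replicate 1, and fell (-0.43 ± 0.11, adjusted p = 0.00272). Its call was lost when only both groups were fitted (-0.41, adjusted p = 0.0694) and with limma on TPM (-0.31, adjusted p = 0.0602). Vegfb (-0.062 ± 0.18, adjusted p = 0.818) and Pdgfb, the endothelial ligand for pericyte PDGF receptors (-0.063 ± 0.15, adjusted p = 0.776), did not pass.

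Of the 6 receptors, the TIE family pair fell and the VEGF receptors did not pass. Tek (ENSMUSG00000006386, chromosome 4, 94739289 to 94874976) was at 37.1, 24.8, 30.6, 28.4 and 34.03 CPM in 9mCON and at 22.3, 22.2, 17.5, 18.6 and 23.1 CPM in 9mTSCmKO, with no overlap (-0.58 ± 0.13, adjusted p = 0.000488). Tie1, an orphan receptor that pairs with TIE2, was at 53.7, 36.6, 43.7, 41.3 and 46.5 CPM in 9mCON and at 31.6, 38.2, 29.6, 27.8 and 32.7 CPM in 9mTSCmKO (-0.47 ± 0.15, adjusted p = 0.0101). Its groups overlapped through 9mTSCmKO replicate 2 and 9mCON replicate 2, and its call was lost with limma on TPM (-0.39, adjusted p = 0.0564). Kdr stood at 61.7, 55.9, 61.97, 52.02 and 68.6 CPM in 9mCON and at 69.5, 86.9, 58.9, 58.5 and 57 CPM in 9mTSCmKO, and Flt1 at 131, 70.3, 113, 113 and 124 and at 158, 145, 59.7, 112 and 80.7 CPM. Both sets of libraries overlapped, with 0.14 ± 0.17, adjusted p = 0.542 for Kdr and 0.012 ± 0.20, adjusted p = 0.968 for Flt1. Flt4, the receptor for VEGF-C and VEGF-D on lymphatic endothelium (-0.27 ± 0.20, adjusted p = 0.297), and Eng, a co-receptor for TGF-β family ligands (-0.027 ± 0.20, adjusted p = 0.93), did not pass either.

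Genes of caveolae and nitric oxide synthesis moved most among those of the vessel wall. Cav1 (ENSMUSG00000007655, chromosome 6, 17306335 to 17341452) was at 232, 153, 162, 185 and 169.6 CPM in 9mCON and at 99.98, 109.5, 86.96, 94.1 and 115 CPM in 9mTSCmKO (-0.84 ± 0.13, adjusted p = 1.35e-06). Cav2, which forms caveolae together with Cav1 and is its neighbour on chromosome 6 (ENSMUSG00000000058, chromosome 6, 17281185 to 17289115), was at 50.8, 38.6, 38.2, 50.4 and 39.1 CPM in 9mCON and at 25.3, 25.2, 23.3, 22.5 and 28.3 CPM in 9mTSCmKO (-0.80 ± 0.14, adjusted p = 2.54e-05). Nos3 (ENSMUSG00000028978, chromosome 5, 24364810 to 24384474) was at 21.6, 21.8, 16.9, 17.9 and 16.5 CPM in 9mCON and at 11.4, 9.41, 14.2, 9.93 and 12.6 CPM in 9mTSCmKO (-0.71 ± 0.18, adjusted p = 0.0018). None of these 3 genes overlapped between groups, and all 3 calls were kept in each of the 8 alternatives and in each of the 10 fits without 1 library. Gpihbp1 did not pass (-0.10 ± 0.21, adjusted p = 0.738).

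Of the 8 junction, surface and matrix genes, Pecam1, Esam and Ecscr fell, by less than the caveolins. Pecam1 was at 85.6, 61.1, 63.3, 73.96 and 82.7 CPM in 9mCON and at 67.6, 69.02, 46.7, 44.3 and 49.9 CPM in 9mTSCmKO (-0.40 ± 0.16, adjusted p = 0.0459). Replicates 1 and 2 of 9mTSCmKO lay within the 9mCON range, and the call was lost without any 1 of 9mCON replicates 1, 4 and 5 or 9mTSCmKO replicates 3, 4 and 5, where the log2 fold change was -0.40 to -0.33 (adjusted p = 0.0698 to 0.134), and in 3 of 8 alternatives (adjusted p up to 0.167). Cdh5 was at 126, 74.4, 91.9, 93.8 and 126 CPM in 9mCON and at 80.5, 99.5, 59.3, 65.8 and 69.9 CPM in 9mTSCmKO, overlapping, and missed the threshold (-0.45 ± 0.19, adjusted p = 0.0643), which it passed without 9mCON replicate 2 (-0.54, adjusted p = 0.0292) or 9mTSCmKO replicate 2 (-0.58, adjusted p = 0.0239). Esam, an adhesion molecule of tight junctions, was at 34.4, 32.4, 26.7, 27.7 and 25.3 CPM in 9mCON and at 22.1, 22.2, 22.2, 18.01 and 21.8 CPM in 9mTSCmKO, without overlap (-0.46 ± 0.15, adjusted p = 0.0112), and its call was kept in all 8 alternatives and all 10 fits without 1 library. Ecscr, a surface protein of endothelium, fell (-0.46 ± 0.18, adjusted p = 0.0424), but the call was lost in 8 of 10 fits, those without 9mCON or 9mTSCmKO replicates 1 to 4 (-0.48 to -0.34, adjusted p = 0.0504 to 0.145), and in 3 of 8 alternatives (adjusted p up to 0.147). The other 4 genes, Emcn, Robo4, Ptprb and Mmrn2, had log2 fold changes of -0.44 to 0.0032 and did not pass. Of these, Ptprb, the endothelial phosphatase that acts on TIE2, passed without 9mCON replicate 2 (-0.59, adjusted p = 0.0233) or 9mTSCmKO replicate 2 (-0.58, adjusted p = 0.0382).

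No transcription factor, Notch gene, secreted protein gene or hypoxia-inducible factor passed at 9 months. Ets1 came nearest among the transcription factors (-0.46 ± 0.20, adjusted p = 0.0655). Erg, a master regulator of endothelial identity, was at 21.4, 12.6, 12.3, 13.1 and 12.8 CPM in 9mCON and at 28.3, 11.4, 11, 8.66 and 10.4 CPM in 9mTSCmKO (-0.053 ± 0.21, adjusted p = 0.867). Replicate 1 was the highest library of both groups, and without 9mTSCmKO replicate 1 Erg passed (-0.47, adjusted p = 0.02). Vwf, the clotting factor stored by endothelium, had -0.56 ± 0.27, adjusted p = 0.0966, and it passed without 9mCON replicate 2 (-0.74, adjusted p = 0.0249) or 9mTSCmKO replicate 2 (-0.85, adjusted p = 0.012). Without 9mCON replicate 2, Ets1 passed as well (-0.55, adjusted p = 0.0339). Hif1a (-0.16 ± 0.12, adjusted p = 0.323) and Epas1 (-0.13 ± 0.15, adjusted p = 0.511) gave small differences, as did Notch1, Notch4 and Dll4 (-0.26 to -0.13).

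Markers of other cells moved beside these genes. In 9mTSCmKO, 5 of 9 pericyte and smooth muscle markers and 5 of 8 fibroblast markers were lower than in 9mCON (beside 18.9% of all genes tested), and none was higher. Summed pericyte and smooth muscle markers ran from 972 to 1427 CPM in 9mCON and from 636 to 1049 CPM in 9mTSCmKO, and summed fibroblast markers from 877 to 1634 CPM and from 314 to 949.7 CPM. Tendon markers were lower for 5 of 6 genes, adipocyte and Schwann cell markers for 2 of 5 each and muscle fiber markers for 3 of 8, with 1 of the latter higher, 1 of 7 immune markers was higher, and no pericyte, fibroblast or muscle fiber marker was at 0 in any library. Their part in the results above was not tested.

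The sequences before the starts of Vegfa, Cav2, Cav1, Tek and Tie1 are shown because these genes fell together at 9 months and had a window. The other genes that fell, Nos3, Angpt1, Esam, Pecam1 and Ecscr, had none. RefSeq (GRCm38.p6) windows of 250 bases before the start were held for 18 of the 34 genes, in 24 windows. They were searched on both strands for AGGAAG, a motif of ETS factors, for GGGCGG, the GC box, for ACGTG, the core of the hypoxia response element, for CACGTG, an E-box that contains it, and for TATAAA, the TATA box. Capitals mark any match of the first 3, and overlapping matches share their letters. The windows lie at chr17:46032378-46032627 (minus strand, Vegfa, the window nearest to the gene start of 2), chr6:17280935-17281184 (plus strand, Cav2), chr6:17306085-17306334 (plus strand, Cav1, the first of 2), chr4:94739039-94739288 (plus strand, Tek) and chr4:118489850-118490099 (minus strand, Tie1).
Vegfa: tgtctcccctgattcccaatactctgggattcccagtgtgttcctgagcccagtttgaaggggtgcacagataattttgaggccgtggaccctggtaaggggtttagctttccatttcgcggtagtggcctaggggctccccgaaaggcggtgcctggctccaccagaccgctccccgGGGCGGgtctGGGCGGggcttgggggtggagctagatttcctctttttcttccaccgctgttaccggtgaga
Cav2: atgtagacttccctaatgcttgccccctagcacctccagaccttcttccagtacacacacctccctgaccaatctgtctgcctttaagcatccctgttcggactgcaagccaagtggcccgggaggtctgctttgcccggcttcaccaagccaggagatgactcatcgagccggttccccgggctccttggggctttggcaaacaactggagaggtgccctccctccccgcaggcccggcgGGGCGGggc
Cav1: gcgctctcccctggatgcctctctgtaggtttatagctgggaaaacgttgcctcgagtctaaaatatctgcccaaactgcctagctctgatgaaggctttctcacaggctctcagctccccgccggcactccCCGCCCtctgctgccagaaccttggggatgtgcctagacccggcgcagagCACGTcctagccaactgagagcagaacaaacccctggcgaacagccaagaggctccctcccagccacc
Tek: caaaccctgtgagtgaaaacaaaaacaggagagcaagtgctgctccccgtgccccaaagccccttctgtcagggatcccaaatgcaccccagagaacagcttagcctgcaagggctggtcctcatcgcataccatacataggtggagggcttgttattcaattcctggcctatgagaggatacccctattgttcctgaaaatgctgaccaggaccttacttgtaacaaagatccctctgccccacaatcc
Tie1: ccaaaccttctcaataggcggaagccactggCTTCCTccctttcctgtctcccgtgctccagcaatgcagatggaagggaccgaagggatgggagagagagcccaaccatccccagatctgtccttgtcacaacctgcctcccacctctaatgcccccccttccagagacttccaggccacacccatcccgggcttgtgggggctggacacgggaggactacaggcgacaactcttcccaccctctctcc
The Vegfa window held 2 GC boxes and no hypoxia response element core, and the second Vegfa window, 7206 bases from the annotated gene start, held 1 of each. Cav2 held 1 GC box, and Cav1 held 1 GC box and 1 ACGTG. Tek held none of these 3 motifs, and Tie1 held 1 AGGAAG. Over the genes of the set, AGGAAG was found in 9 of 24 windows (37.5%, beside 29.5% of all 32851 windows), GGGCGG in 12 (50%, beside 32.7%) ACGTG in 3 (12.5%, beside 16.6%), CACGTG in 1 (4.17%, beside 6.02%) and TATAAA in 3 (12.5%, beside 12.4%). A match is a description of letters and says nothing of binding.

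The same comparison at 3 months addressed which differences were present earlier. Of the 34 genes, 3 differed between 3mTSCmKO and 3mCON, all lower (Vegfa, Cav2 and Cav1), which is 8.82% of the set, beside 19.8% of all genes tested and 8.32% for lower genes. The median log2 fold change was -0.16, beside -0.024 over all genes, and 28 of the 34 values were negative.

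Vegfa was at 305, 245, 296, 251 and 308 CPM in 3mCON and at 139.8, 139, 132, 128 and 163 CPM in 3mTSCmKO, a 2-fold fall with a wide gap between groups (-1.0 ± 0.12, adjusted p = 7.95e-08). Cav2 was at 58.01, 49.2, 53.2, 49.8 and 78.7 CPM in 3mCON and at 44.6, 35.9, 44.6, 51.7 and 31.6 CPM in 3mTSCmKO (-0.47 ± 0.14, adjusted p = 0.0149). Only 3mTSCmKO replicate 4 reached into the 3mCON range, but the call was lost without 3mCON replicate 5 (-0.33, adjusted p = 0.097) or 3mTSCmKO replicate 5 (-0.38, adjusted p = 0.0646). Cav1 was at 171, 164, 175, 160.3 and 272 CPM in 3mCON and at 131, 145, 154, 167 and 147 CPM in 3mTSCmKO (-0.34 ± 0.12, adjusted p = 0.049). This fall rested on 3mCON replicate 5, without which it was -0.17 (adjusted p = 0.335), and was also lost without 3mCON replicate 3 or 3mTSCmKO replicate 1, 2, 3 or 5 (up to -0.36, adjusted p = 0.0513 or more) and in 5 of the 8 alternatives.

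Genes that had changed at 9 months but did not pass at 3 months included Tek, Pecam1 and Angpt2. Tek was at 43.2, 37.6, 40.4, 40.7 and 53.6 CPM in 3mCON and at 36.8, 33.5, 35.3, 33.7 and 30.6 CPM in 3mTSCmKO, without overlap, and narrowly missed the threshold (-0.34 ± 0.13, adjusted p = 0.0529). It passed with DESeq2 (-0.34, adjusted p = 0.0395), with upper-quartile scaling (-0.38, adjusted p = 0.0369) and in 4 other fits. Pecam1 was at 78.7, 78.3, 87.5, 80.8 and 112 CPM in 3mCON and at 67.8, 71.4, 75.9, 86.3 and 72.3 CPM in 3mTSCmKO, overlapping (-0.23 ± 0.16, adjusted p = 0.355). Cdh5 was at 128, 105, 99.6, 115 and 173 CPM in 3mCON and at 89.4, 124, 106, 87.2 and 117 CPM in 3mTSCmKO (-0.24 ± 0.19, adjusted p = 0.42). Replicate 5 was the highest 3mCON library for both genes. Kdr was at 86.96, 55.95, 76.7, 77.2 and 116 CPM in 3mCON and at 82.5, 80.3, 81.7, 68.8 and 75.6 CPM in 3mTSCmKO, Flt1 at 113, 144, 94.7, 122 and 146 and 99.4, 109.9, 109, 114 and 114 CPM, and Angpt2 at 5.49, 3.27, 4.67, 3.81 and 8.70 and 5.80, 8.10, 4.32, 4.99 and 4.97 CPM. These overlapped throughout, with -0.085 ± 0.17, adjusted p = 0.775 for Kdr, -0.18 ± 0.20, adjusted p = 0.575 for Flt1 and 0.12 ± 0.27, adjusted p = 0.801 for Angpt2. The 31 genes that did not pass had log2 fold changes of -0.44 to 0.24. Among other cell types, 1 of 9 pericyte and smooth muscle markers and 1 of 6 tendon markers were lower (beside 8.32% of all genes tested), and their part was not tested.

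An interaction term compared the genotype effect at both ages, and 0 of 34 genes passed in edgeR, beside 4.94% of all genes tested. At an unadjusted p under 0.05 there were 2 genes, Cav1 (-0.50 ± 0.18, adjusted p = 0.0948) and Esam (-0.45 ± 0.20, adjusted p = 0.218). DESeq2 and limma each called 0 as well, beside 867 of 13540 and 614 of 13543 genes tested. Without 3mCON replicate 5, Cav1 passed (-0.66, adjusted p = 0.0106).

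Changes between 3 and 9 months were examined within each genotype, between ages that also differed in labelled insert size. These comparisons share groups with those above. In CON, 0 of 34 genes passed in edgeR, beside 1.02% of all genes tested, with 7 genes at an unadjusted p under 0.05. DESeq2 called 1 gene and limma 0, beside 375 of 13540 and 215 of 13543 genes tested. The gene was Tek, lower at 9 months with no overlap between 3mCON and 9mCON (-0.47 ± 0.13, adjusted p = 0.0555), and it passed with DESeq2 (-0.47, adjusted p = 0.0232), with the replicate block and without 9mCON replicate 1 (-0.55, adjusted p = 0.0494) or replicate 5 (-0.51, adjusted p = 0.0262).

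In TSCmKO, 12 of 34 genes changed with age and all 12 were lower in 9mTSCmKO (35.3% of the set, beside 37.4% of all genes tested and 18.3% for lower genes). The median was -0.26, beside 0.0036 over all genes. With insert size as a term, 1701 of 13537 genes tested passed, beside 5064 of 13543 without this term. Of the set, 7 genes passed with it, namely Cav1, Cav2, Tek, Tie1, Hif1a, Ptprb and Vwf. The other 5 had differences no smaller than without the insert size term (Notch4 -0.95, Cdh5 -0.73, Ets1 -0.73, Pecam1 -0.58 and Esam -0.47, adjusted p = 0.055 to 0.128). Vwf was at 36.2, 49.1, 37.98, 28.5 and 31.5 CPM in 3mTSCmKO and at 23.3, 35.5, 11.8, 13.3 and 19.03 CPM in 9mTSCmKO (-0.83 ± 0.27, adjusted p = 0.0147), a call lost without 3mTSCmKO replicate 2 or 9mTSCmKO replicate 3 (-0.70 to -0.67, adjusted p = 0.0504 to 0.0639) and with limma on TPM (-0.66, adjusted p = 0.0536). Ptprb was at 145, 179, 181, 176 and 184 CPM in 3mTSCmKO and at 129, 141, 61.4, 99.1 and 87.2 CPM in 9mTSCmKO, without overlap (-0.74 ± 0.21, adjusted p = 0.00632). Ets1 was at 27.8, 26.3, 29.6, 24.4 and 25.5 CPM in 3mTSCmKO and at 19.2, 19.7, 11.6, 16.7 and 20.6 CPM in 9mTSCmKO, also without overlap (-0.60 ± 0.20, adjusted p = 0.0169), but missed the threshold without 9mTSCmKO replicate 3 (-0.47, adjusted p = 0.0771). Notch4 was at 14.4, 17.5, 18.4, 29.5 and 28.7 CPM in 3mTSCmKO and at 17.7, 18.9, 9.55, 15.9 and 10.9 CPM in 9mTSCmKO, with overlap (-0.58 ± 0.24, adjusted p = 0.0489), and its call was lost in 7 of 8 alternatives and without 3mTSCmKO or 9mTSCmKO replicate 3, 4 or 5 (-0.62 to -0.42, adjusted p = 0.053 to 0.183).

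The other 8 genes that changed with age in TSCmKO were vessel wall, receptor and junction genes and Hif1a. Cav2 (-0.74 ± 0.14, adjusted p = 0.000121), Tek (-0.71 ± 0.13, adjusted p = 5.65e-05) and Cav1 (-0.56 ± 0.12, adjusted p = 0.000637) fell with no overlap between 3mTSCmKO and 9mTSCmKO, and Hif1a fell likewise (-0.47 ± 0.12, adjusted p = 0.00277). Tie1 fell with overlap (-0.51 ± 0.15, adjusted p = 0.0062). These 5 calls and that of Ptprb were kept in all alternatives and all fits without 1 library. Pecam1 (-0.43 ± 0.16, adjusted p = 0.0337), Cdh5 (-0.48 ± 0.19, adjusted p = 0.0476) and Esam (-0.44 ± 0.14, adjusted p = 0.0156) changed less firmly. Pecam1 lost its call without 3mTSCmKO replicate 3 or 4 or 9mTSCmKO replicate 3, 4 or 5 (-0.41 to -0.34, adjusted p = 0.0637 to 0.108) and in 3 of 8 alternatives (adjusted p up to 0.0811). Cdh5 lost it without 3mTSCmKO replicate 2, 3 or 5 or 9mTSCmKO replicate 1, 3, 4 or 5 (-0.49 to -0.39, adjusted p = 0.0705 to 0.146) and in 4 of 8 alternatives (adjusted p up to 0.0919). Esam lost it without 3mTSCmKO replicate 4 or 5 (-0.34 to -0.33, adjusted p = 0.0729 to 0.0821) and in 2 of 8 alternatives (adjusted p up to 0.128). Vegfa had a positive difference that missed the threshold (0.30 ± 0.12, adjusted p = 0.055) and passed as higher in 4 of 8 alternatives (0.29 to 0.33, adjusted p = 0.0329 to 0.0452). Sox18 passed as higher without 9mTSCmKO replicate 4 or 5 (0.79 and 0.78, adjusted p = 0.0491 and 0.0488). Ecscr, Erg and Notch1 passed as lower in some fits (-0.64 to -0.47, adjusted p = 0.01 to 0.0402). Beside these genes, and beside 18.3% of all genes tested, 5 of 8 fibroblast, 5 of 6 tendon, 4 of 9 pericyte and smooth muscle, 5 of 5 adipocyte and 4 of 5 red blood cell markers were lower in 9mTSCmKO than in 3mTSCmKO. Meanwhile 1 tendon marker was higher, and 3 of 7 immune markers were higher and 1 lower. Of 8 muscle fiber markers 2 were lower and 1 higher, and 1 of 5 Schwann cell markers was higher. Their part was not tested.

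Short rapamycin treatment asked which differences respond quickly to mTORC1 inhibition. In 9mTSCmKO, 7 of 34 genes changed with rapamycin, 3 higher (Angpt1, Cav1 and Tek) and 4 lower (Angpt2, Notch4, Gpihbp1 and Kdr), which is 20.6% of the set, beside 32.6% of all genes tested. The median was -0.10, beside -0.045 over all genes. This comparison shares the 9mTSCmKO libraries with the genotype comparison. Notch4, Gpihbp1 and Kdr had not passed in that comparison.

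**Figure D4:**
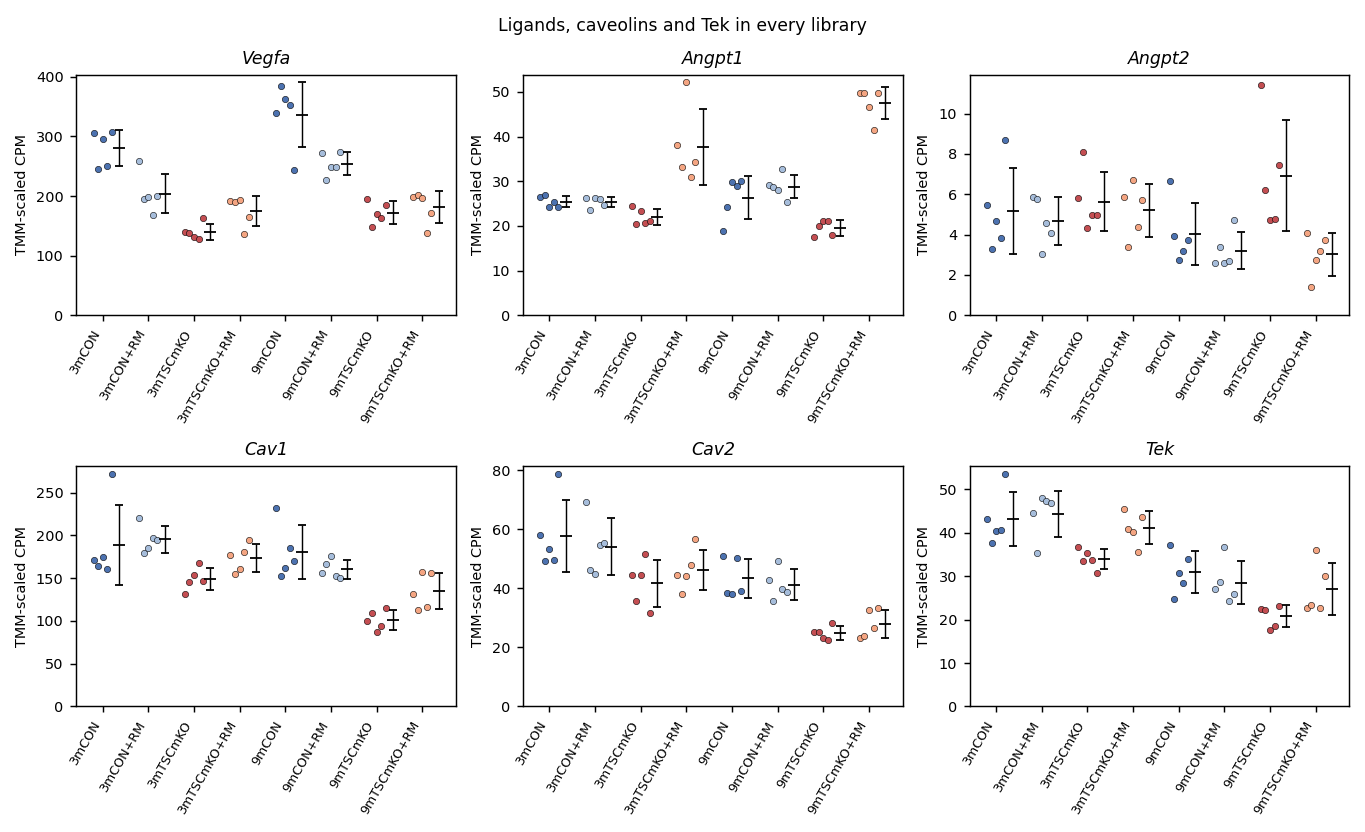
TMM-scaled CPM of Vegfa, Angpt1, Angpt2, Cav1, Cav2 and Tek in each library (coloured points, replicates 1 to 5 from left to right) of the 8 groups, with the mean ± SD of 5 libraries in black. Angpt1 lies at 41.6 to 49.8 CPM in 9mTSCmKO+RM and at 32.8 CPM or below in every vehicle library and every CON+RM library.

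Angpt1 showed the largest rise of the set. It was at 17.4, 20.1, 21, 21.1 and 17.9 CPM in 9mTSCmKO and at 49.8, 49.7, 46.7, 41.6 and 49.7 CPM in 9mTSCmKO+RM, a 2.44-fold rise without overlap (1.28 ± 0.12, adjusted p = 9.67e-11). Angpt2 went from 11.4, 6.24, 4.75, 4.79 and 7.44 CPM in 9mTSCmKO to 4.07, 1.38, 2.72, 3.17 and 3.72 CPM in 9mTSCmKO+RM, without overlap (-1.22 ± 0.28, adjusted p = 0.000986). Both calls were kept in all 8 alternatives and all 10 fits without 1 library. Vegfa did not pass, at 198, 202, 197, 138 and 172 CPM in 9mTSCmKO+RM (0.074 ± 0.12, adjusted p = 0.676), and its 9mTSCmKO+RM libraries all lay below the lowest 9mCON library.

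Among vessel wall genes, Cav1 was at 131, 113, 157, 116 and 156 CPM in 9mTSCmKO+RM, a rise (0.42 ± 0.12, adjusted p = 0.00954) in which 1 library, replicate 2, stayed below the highest 9mTSCmKO library. Cav2 was at 23.2, 23.9, 32.6, 26.5 and 33.3 CPM and did not pass (0.16 ± 0.14, adjusted p = 0.404). Tek was at 22.7, 23.3, 36.05, 22.6 and 30 CPM (0.38 ± 0.13, adjusted p = 0.0231). Its rise was lost without 9mTSCmKO+RM replicate 3, the highest library, without 9mTSCmKO+RM replicate 5 and without 9mTSCmKO replicate 3 or 4 (0.25 to 0.34, adjusted p = 0.0607 to 0.144), and in 3 of 8 alternatives. Kdr was at 33.2, 33.9, 70.2, 41.8 and 51.3 CPM, lower (-0.52 ± 0.17, adjusted p = 0.0168) in every library but replicate 3 than the lowest 9mTSCmKO library. Its call was lost without 9mTSCmKO replicate 2 or 9mTSCmKO+RM replicate 1 or 2 (-0.43 to -0.42, adjusted p = 0.0564 to 0.0661) and when only both groups were fitted (-0.53, adjusted p = 0.0785). Flt1 was at 73.5, 75.6, 129.6, 81.9 and 113 CPM (-0.23 ± 0.20, adjusted p = 0.383), Pecam1 at 51.4, 40.97, 83.03, 45.4 and 72.4 CPM (0.08 ± 0.16, adjusted p = 0.735) and Cdh5 at 79.7, 54.4, 130.1, 58.7 and 101 CPM (0.18 ± 0.19, adjusted p = 0.507), and none of them passed.

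Notch4, a Notch receptor of endothelium, was at 17.7, 18.9, 9.55, 15.9 and 10.9 CPM in 9mTSCmKO and at 9.94, 9.28, 14.6, 4.96 and 8.78 CPM in 9mTSCmKO+RM (-0.61 ± 0.24, adjusted p = 0.0499). The call was lost in 6 of 8 alternatives and without 9mTSCmKO replicate 1, 2 or 4 or 9mTSCmKO+RM replicate 1, 2, 4 or 5 (-0.62 to -0.45, adjusted p = 0.0654 to 0.159). Gpihbp1 was at 43.02, 41.8, 36.9, 31.5 and 31.6 CPM in 9mTSCmKO and at 34.5, 19.2, 27.8, 15.4 and 29.1 CPM in 9mTSCmKO+RM (-0.55 ± 0.22, adjusted p = 0.0468), a call lost in 2 alternatives and without replicates 1, 2 or 3 of 9mTSCmKO or 2, 3 or 4 of 9mTSCmKO+RM (-0.59 to -0.42, adjusted p = 0.056 to 0.148). The other Notch genes, Notch1 (-0.36 ± 0.17, adjusted p = 0.0893) and Dll4, the Notch ligand of sprouting tip cells (-0.45 ± 0.20, adjusted p = 0.0825), passed only without 9mTSCmKO+RM replicate 3 (-0.54, adjusted p = 0.0116, and -0.66, adjusted p = 0.0138). That library had the highest summed endothelial level of its group. The 27 genes that did not pass had log2 fold changes of -0.69 to 0.32. Of these, Sox18 passed as lower without 9mTSCmKO replicate 4 or 5 or 9mTSCmKO+RM replicate 1 (-0.91 to -0.85, adjusted p = 0.0319 to 0.0389). Vegfb passed as lower without 9mTSCmKO+RM replicate 1 (-0.51, adjusted p = 0.0148), and Tie1 as higher without 9mTSCmKO+RM replicate 4 (0.40, adjusted p = 0.0448). Beside these genes, 3 of 9 pericyte and smooth muscle markers rose with rapamycin, summing to 763 to 1422 CPM in 9mTSCmKO+RM. Of 8 muscle fiber markers 3 rose and 1 fell. In addition, 1 of 3 satellite cell markers rose and 1 of 5 Schwann cell markers fell, where 32.6% of all genes tested changed. Their part was not tested.

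**Figure D5:**
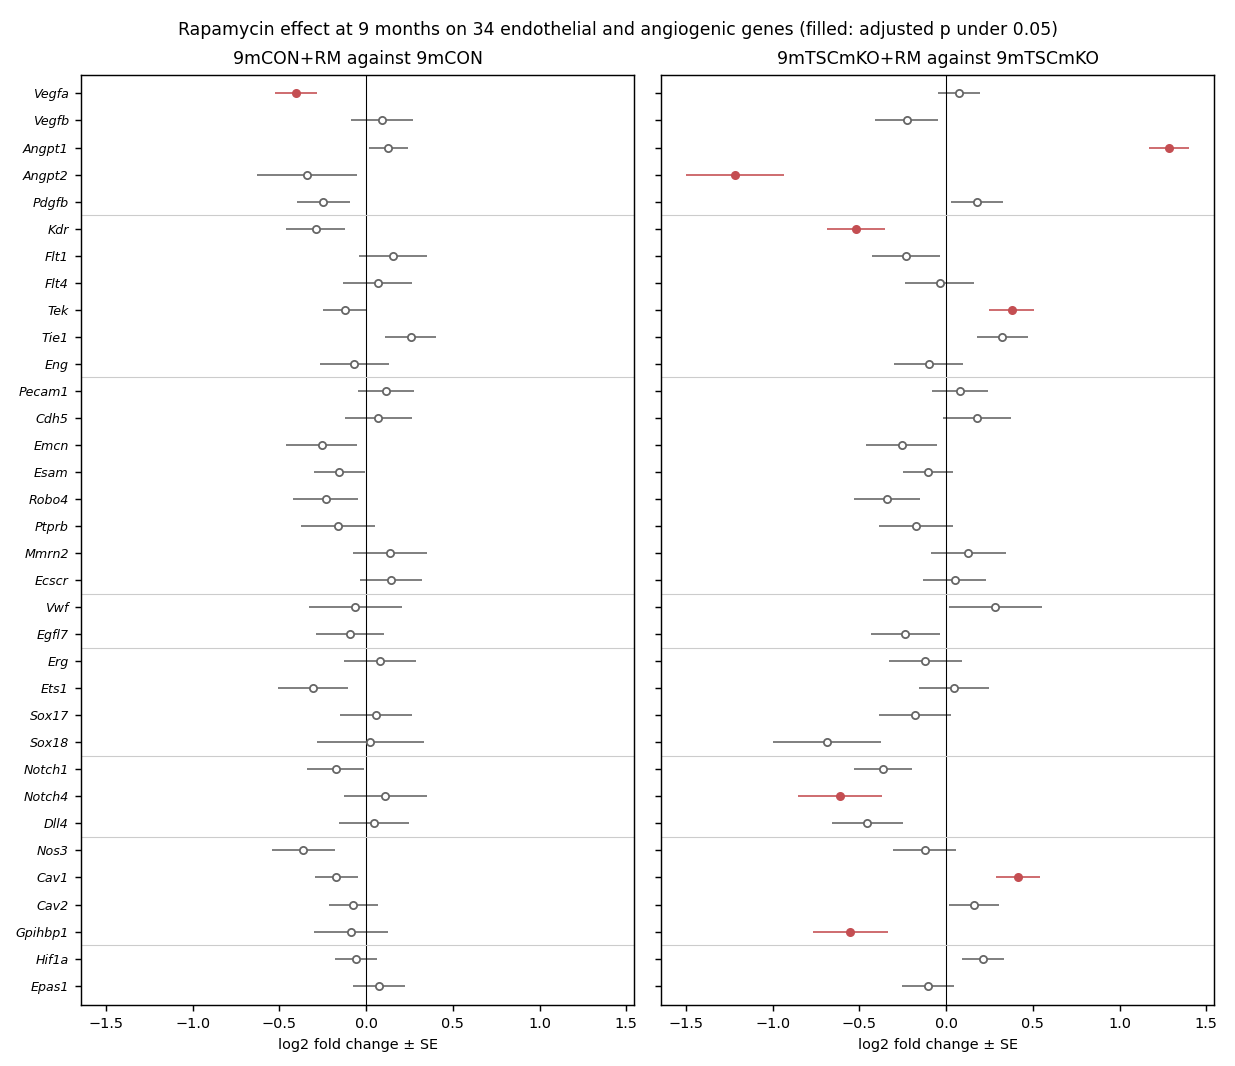
Log2 fold change (point) ± SE (line) of the 34 genes with rapamycin at 9 months in CON (left) and TSCmKO (right), ordered by role, with filled red points for adjusted p under 0.05. In CON only Vegfa is filled, and in TSCmKO 7 genes are, from Angpt2 at -1.22 to Angpt1 at 1.28.

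In 3mTSCmKO, 3 of 34 genes changed with rapamycin (8.82% of the set, beside 23.6% of all genes tested), 2 higher and 1 lower. The median was 0.038, beside 0.0099 over all genes. Angpt1 was at 24.4, 20.3, 23.4, 20.6 and 21.1 CPM in 3mTSCmKO and at 38.1, 33.1, 52.1, 30.9 and 34.2 CPM in 3mTSCmKO+RM, without overlap (0.78 ± 0.11, adjusted p = 1.95e-06). Dll4 was at 11.3, 10.2, 7.45, 7.61 and 8.42 CPM in 3mTSCmKO and at 20.3, 10.8, 15.2, 13.4 and 14.8 CPM in 3mTSCmKO+RM (0.73 ± 0.20, adjusted p = 0.00519), with only replicate 2 of the latter below the highest 3mTSCmKO library. Gpihbp1 was at 20.4, 30.2, 29.6, 50.6 and 49.4 CPM in 3mTSCmKO and at 21.1, 19.8, 20.4, 19.4 and 25.3 CPM in 3mTSCmKO+RM (-0.77 ± 0.22, adjusted p = 0.0073). The 3mTSCmKO values were split, with replicate 1 as low as the rapamycin libraries and replicates 4 and 5 the highest. All 3 calls were kept in the 8 alternatives and the 10 fits without 1 library.

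Vegfa was at 192, 189.6, 193, 136 and 165 CPM in 3mTSCmKO+RM and just missed the threshold (0.32 ± 0.12, adjusted p = 0.0563), which it passed in 6 of 8 alternatives (DESeq2 0.32, adjusted p = 0.0416) and without 3mTSCmKO replicate 5 or 3mTSCmKO+RM replicate 4 (0.38 and 0.40, adjusted p = 0.0342 and 0.0209). Kdr was at 84.1, 63.4, 62.5, 59.04 and 74.2 CPM, Flt1 at 99.7, 96.2, 111, 94.5 and 104 CPM and Angpt2 at 5.89, 3.40, 6.69, 4.36 and 5.69 CPM in 3mTSCmKO+RM, and none passed (-0.18 ± 0.17, adjusted p = 0.482 for Kdr, -0.11 ± 0.20, adjusted p = 0.741 for Flt1 and -0.11 ± 0.27, adjusted p = 0.817 for Angpt2). For Pecam1 and Cdh5 the values were 90.9, 77.4, 99.5, 63.4 and 92.7 CPM (0.18 ± 0.16, adjusted p = 0.457) and 129, 105, 97.98, 106 and 136 CPM (0.13 ± 0.19, adjusted p = 0.677), overlapping those of 3mTSCmKO. Angpt2 thus changed in 9mTSCmKO and did not pass in 3mTSCmKO, and the difference between these ages was not tested. Among other cell types, 1 of 8 fibroblast, 2 of 6 tendon, 1 of 9 pericyte and smooth muscle, 3 of 8 muscle fiber markers and 1 of 7 immune markers rose, where 23.6% of all genes tested changed, and their part was not tested.

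In muscle that kept Tsc1, rapamycin changed 1 of 34 genes at 9 months (2.94% of the set, beside 11.8% of all genes tested). This was Vegfa, at 272, 227, 248, 249 and 274 CPM in 9mCON+RM, which fell with overlap through 9mCON replicate 5 (-0.41 ± 0.12, adjusted p = 0.0257). The call was lost without 9mCON replicate 2 or 3 or 9mCON+RM replicate 2 (-0.38 to -0.35, adjusted p = 0.0582 to 0.0807), with no filter on low counts (-0.37, adjusted p = 0.0703) and when only both groups were fitted (-0.41, adjusted p = 0.114). At 3 months 0 of 34 genes passed in edgeR, beside 0.679% of all genes tested, with 3 genes at an unadjusted p under 0.05, namely Vegfa, Kdr and Ets1. Beside 171 of 13540 and 96 of 13543 genes tested, DESeq2 and limma each called 1 gene of the set, Vegfa. It was at 258, 195, 198, 169 and 199 CPM in 3mCON+RM, with only replicate 1 above the lowest 3mCON library (-0.46 ± 0.12, adjusted p = 0.0652), and passed with DESeq2 (-0.46, adjusted p = 0.0167), with limma (-0.48, adjusted p = 0.0431) and without 3mCON+RM replicate 1 (-0.56, adjusted p = 0.0219).

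None of Pecam1, Cdh5, Kdr, Flt1, Angpt1 and Angpt2 passed in CON with rapamycin (edgeR). Pecam1 was at 71.6, 66.4, 109, 68.4 and 82.7 CPM in 9mCON+RM and at 93.5, 88.6, 84.1, 88.6 and 95.7 CPM in 3mCON+RM, and Cdh5 at 82.9, 84.7, 161, 98 and 111 and 106, 106, 120.2, 117 and 122 CPM. Replicate 3 of 9mCON+RM was the highest of its group for both. Kdr was at 45.2, 55.4, 60.6, 36.5 and 47.5 CPM in 9mCON+RM (-0.29 ± 0.17, adjusted p = 0.299) and at 61, 48.1, 69.9, 54.98 and 67.7 CPM in 3mCON+RM (-0.45 ± 0.17, adjusted p = 0.299). Flt1 was at 79.6, 107, 174, 113 and 139 and 117, 143, 119, 140.4 and 129 CPM, and Angpt2 at 2.57, 3.39, 2.60, 2.67 and 4.72 and 5.86, 5.75, 3.03, 4.56 and 4.07 CPM. All of these overlapped the vehicle groups of the same age. Angpt1, the gene with the strongest response in TSCmKO, was at 29.1, 28.7, 28.1, 32.8 and 25.4 CPM in 9mCON+RM (0.13 ± 0.11, adjusted p = 0.541) and at 26.2, 23.6, 26.3, 26.1 and 24.7 CPM in 3mCON+RM (-0.0039 ± 0.11, adjusted p = 0.997). Fibroblast markers were lower for 8 of 8 genes in 9mCON+RM, summing to 135 to 629.9 CPM. So were 5 of 6 tendon, 4 of 7 immune and 1 of 5 Schwann cell markers (where 11.8% of all genes tested changed), and their part was not tested. The interaction of rapamycin with age in CON called 0 of 34 genes (edgeR, DESeq2 and limma, with 0 at an unadjusted p under 0.05), beside 0.938% of all genes tested.

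Whether rapamycin acted differently in the genotypes was tested directly. At 9 months the interaction passed for 2 of 34 genes, beside 4.87% of all genes tested, and at 3 months for 2 of 34, beside 3.45%. Angpt1 passed at both ages, with a larger rise in TSCmKO by 1.16 ± 0.16, adjusted p = 9.21e-05 at 9 months and 0.78 ± 0.16, adjusted p = 0.00316 at 3 months. Vegfa passed at 3 months (0.78 ± 0.17, adjusted p = 0.00639), where its mean went from 140.3 to 175 CPM with rapamycin in TSCmKO and from 281 to 204 CPM in CON. At 9 months its means were 172 and 181 CPM in TSCmKO and 336.5 and 254 CPM in CON, and the interaction did not pass (0.48 ± 0.17, adjusted p = 0.0998), except without 9mCON replicate 5 (0.56, adjusted p = 0.044) or 9mTSCmKO+RM replicate 4 (0.56, adjusted p = 0.0468). Cav1 passed at 9 months (0.59 ± 0.18, adjusted p = 0.0441), but this call was lost in 4 of 8 alternatives and in 12 of 20 fits without 1 library, those without 9mCON replicate 1, 4 or 5, 9mCON+RM replicate 1, 2, 4 or 5, 9mTSCmKO replicate 1, 3 or 4 or 9mTSCmKO+RM replicate 3 or 5 (0.48 to 0.60, adjusted p = 0.0535 to 0.0946). For Angpt2 the interaction at 9 months had -0.87 ± 0.40, adjusted p = 0.209 and did not pass. Tek (0.50 ± 0.18, adjusted p = 0.103) passed only without 9mCON+RM replicate 3 (0.61, adjusted p = 0.0424). In the same test at 9 months, 1 of 8 fibroblast markers (median 1.09) and none of the tendon markers (median 1.99) passed, and at 3 months 1 of 6 tendon markers did (median 0.92). Their part was not tested.

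Other genes of the same biology were described by count, with no test of the lists. Of 26 further endothelial genes tested, 1 was higher and 8 lower in 9mTSCmKO than in 9mCON, with a median log2 fold change of -0.42, where 37.9% of all genes tested changed and 18.9% were lower. The largest changes were those of Bcl6b, an endothelial repressor (-1.36, adjusted p = 0.0085), Cd34, a surface sialomucin also found on fibroblast progenitors (-1.11, adjusted p = 6.35e-06), Rgcc, a cell cycle regulator (0.98, adjusted p = 0.00536), and Procr, the protein C receptor (-0.76, adjusted p = 0.0245). At 3 months 0 were higher and 1 lower, namely Podxl, a sialomucin of the vessel lumen (-0.60, adjusted p = 0.0109), where 19.8% of all genes tested changed. With rapamycin 1 rose and 1 fell in 9mTSCmKO, Rgcc (1.70, adjusted p = 1.17e-05) and Tmem204 (-0.82, adjusted p = 0.00485), and 6 fell in 9mCON, where 32.6% and 11.8% of all genes tested changed, respectively. In 3mTSCmKO 2 rose and 1 fell (median 0.14), where 23.6% of all genes tested changed.

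Of 22 other angiogenic ligands, receptors and Notch genes, 3 were higher and 7 lower in 9mTSCmKO (median -0.23), and 1 was higher and 5 lower in 3mTSCmKO (median -0.28), where 37.9% and 19.8% of all genes tested changed. Vegfd, a VEGF family ligand of the receptor encoded by Flt4, rose (1.88, adjusted p = 1.34e-09), as did Angptl4, an inhibitor of lipoprotein lipase (1.62, adjusted p = 0.0231). Apln, the ligand apelin, fell (-1.84, adjusted p = 0.000661), and so did Fgf2, the basic fibroblast growth factor (-1.23, adjusted p = 4.95e-07). At 3 months Vegfd rose too (1.41, adjusted p = 2.43e-06) and Fgf2 fell (-0.78, adjusted p = 0.000687), as did the Notch ligand Dll1 (-0.93, adjusted p = 0.000432) and the Notch target Hey2 (-0.93, adjusted p = 0.00479). With rapamycin Vegfd fell in 9mTSCmKO (-1.60, adjusted p = 9.15e-08) and in 3mTSCmKO (-1.02, adjusted p = 0.000192), where 3 rose and 4 fell, and 2 rose and 1 fell, respectively, beside 32.6% and 23.6% of all genes tested that changed. In 9mTSCmKO, Angptl4 (-1.68, adjusted p = 0.0213) and Hey1 (-0.84, adjusted p = 0.0035) fell and Notch3, the Notch receptor of mural cells, rose (0.93, adjusted p = 0.00102).

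Hypoxia response genes were described because Vegfa is a known target of the hypoxia-inducible factors. Of 19 tested, 7 were higher and 3 lower in 9mTSCmKO than in 9mCON (median 0.37), and 6 were higher and 2 lower in 3mTSCmKO than in 3mCON (median 0.17), beside 37.9% and 19.8% of all genes tested that changed, while Vegfa itself was lower at both ages. Ddit4, an mTORC1 inhibitor of the stress response, rose most (1.73, adjusted p = 0.00795 at 9 months and 3.23, adjusted p = 3.23e-05 at 3 months). Slc2a1, the glucose transporter GLUT1, rose at 9 months (1.55, adjusted p = 7.7e-10), and so did Ankrd37 (1.09, adjusted p = 0.000267) and Adm, the vasodilator adrenomedullin (0.80, adjusted p = 0.0161). The 3 lower genes at 9 months were the glycolytic enzymes Ldha (-0.76, adjusted p = 0.000172) and Pgk1 (-0.46, adjusted p = 0.00368) and the collagen hydroxylase P4ha1 (-0.29, adjusted p = 0.0297), all 3 named after their values were seen. With rapamycin 1 of 19 rose and 7 fell in 9mTSCmKO (median -0.30), and 1 rose and 6 fell in 3mTSCmKO (median -0.16), beside 32.6% and 23.6% of all genes tested that changed. Ddit4 (-2.38, adjusted p = 0.000776) and Slc2a1 (-1.51, adjusted p = 4.65e-09) fell in 9mTSCmKO, and Hif1a and Epas1 did not pass there (0.21 ± 0.12, adjusted p = 0.183 and -0.10 ± 0.15, adjusted p = 0.631). In CON, 1 rose and 1 fell at 9 months, where 11.8% of all genes tested changed.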

How the data were processed

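Whole EDL muscle RNA was sequenced in 40 libraries, 1 per mouse. Per the study's methods and the submitters' processing notes, reads were trimmed (cutadapt 1.9.1) and assigned to Ensembl transcripts (kallisto 0.43.1), a read that fitted several transcripts being shared between them. The authors deposited estimated counts per gene, as whole numbers, and TPM per gene for 22844 genes on GRCm38. Depth was 8883870 to 35224669 counts per library, and the spread between libraries includes counting error.

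The 36 genes and all gene lists were chosen with earlier results of these data known. Each of the 12 comparisons was a contrast in 1 fit of all 8 group means (edgeR 4.0.16 quasi-likelihood test in R 4.3.3, TMM scaling) over the 13543 genes at 1 CPM or more in at least 5 libraries, with Benjamini-Hochberg adjustment over all of them and a threshold of 0.05. Values per library are TMM-scaled CPM. Levels between genes were compared in TPM. Alternatives were DESeq2 1.42.0, limma 3.58.1 on log2(TPM + 1), which understates changes of low genes, other scalings, no filter, insert size, a replicate block, the groups compared alone, and each library left out. The fit was tested on simulated data. Every library is named for Pecam1, Cdh5, Kdr, Flt1, Vegfa and Angpt2 and for up to 6 further genes past the threshold with the largest changes in a comparison, and up to 4 genes are named per list and comparison. Beyond these, Ldha, Pgk1 and P4ha1, per-library values of Erg, and of Tek, Angpt1, Cav1 and Cav2 where they did not pass, were chosen after their values were seen, as were the further genes named as passing in single alternatives. Promoter windows came from RefSeq (GRCm38.p6). How Cre was driven is not given in the sources used here.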

Additional observations from a re-analysis of the deposited data

Results flagged for a closer look

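Of 272 groups of 5 libraries, 1 for each gene and group, 30 had a library set apart from the other 4 by a gap large for the range of the group (Dixon's criterion), where chance gives about 1 in 20. Values are TMM-scaled CPM of that library against the range of the others. In 3mCON, replicate 5 was high for Pecam1 (112 CPM against 78.3 to 87.5 CPM), Cav1 (272 CPM against 160.3 to 175 CPM) and Notch4 (27.1 CPM against 17.5 to 19.0 CPM), and replicate 2 was low for Dll4 (7.46 CPM against 10.3 to 11.5 CPM). In 3mCON+RM, replicate 5 was high for Mmrn2 (25.6 CPM against 20.1 to 21.1 CPM), and replicate 2 was low for Tek (35.3 CPM against 44.4 to 47.9 CPM) and Ets1 (20.6 CPM against 27.2 to 28.9 CPM). Also in 3mCON+RM, replicate 3 was low for Robo4 (23.0 CPM against 30.6 to 32.6 CPM) and Gpihbp1 (18.4 CPM against 31.2 to 32.4 CPM). In 3mTSCmKO, replicate 5 was high for Egfl7 (27.8 CPM against 19.4 to 21.5 CPM), and replicate 1 was low for Ptprb (145 CPM against 176 to 184 CPM). In 3mTSCmKO+RM, replicate 5 was high for Vwf (53.8 CPM against 33.7 to 39.5 CPM), Mmrn2 (30.1 CPM against 20.7 to 23.4 CPM) and Gpihbp1 (25.3 CPM against 19.4 to 21.1 CPM). In 9mCON, replicate 1 was high for Emcn (27.9 CPM against 13.8 to 16.9 CPM), Erg (21.4 CPM against 12.3 to 13.1 CPM), Robo4 (47.6 CPM against 24.9 to 29.6 CPM) and Dll4 (14.9 CPM against 8.52 to 9.43 CPM), and replicate 2 was high for Vegfb (214 CPM against 128 to 131 CPM). In 9mCON+RM, replicate 1 was high for Vegfb (235 CPM against 123 to 145 CPM), and replicate 3 was high for Erg (19.8 CPM against 13.3 to 14.6 CPM), Epas1 (416 CPM against 269 to 299.5 CPM) and Notch1 (37.7 CPM against 19.1 to 21.9 CPM). In 9mTSCmKO, replicate 1 was high for Erg (28.3 CPM against 8.66 to 11.4 CPM) and Sox17 (15.4 CPM against 7.33 to 9.14 CPM), and replicate 2 was high for Dll4 (11.5 CPM against 8.53 to 9.06 CPM). Also in 9mTSCmKO, replicate 4 was low for Esam (18.0 CPM against 21.8 to 22.2 CPM). In 9mTSCmKO+RM, replicate 1 was high for Egfl7 (36.4 CPM against 17.5 to 22.0 CPM) and Vegfb (205 CPM against 92.2 to 103 CPM), and replicate 3 was high for Mmrn2 (24.4 CPM against 12.5 to 15.8 CPM).

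The response to rapamycin differed between the genotypes in 4 tests of the difference itself. The log2 fold change in TSCmKO minus that in CON was 1.16 at 9 months and 0.78 at 3 months for Angpt1, 0.78 at 3 months for Vegfa and 0.59 at 9 months for Cav1. For Vegfa and Cav1 the fold changes had opposite signs, with 0.32 in TSCmKO and -0.46 in CON for Vegfa and 0.42 in TSCmKO and -0.17 in CON for Cav1. Of these values, only that of Cav1 in TSCmKO passed by itself in the main fit. The Cav1 difference was lost in 4 of 8 alternatives and in 12 of 20 fits without 1 library. No explanation for these values was tested.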

How the results depend on the processing

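Of 41 calls on these genes, 22 were kept in all 8 alternatives and in every fit without 1 library, and 0 reversed in any of them. Fitting only the groups compared gave 7 genes for 9mTSCmKO against 9mCON, 3 for rapamycin in 9mTSCmKO and 7 in 3mTSCmKO. Of all genes tested in those fits, 2647 of 12794, 2544 of 12740 and 4211 of 12602 passed. The same setting gave 0 genes for rapamycin in 9mCON, 1 in 3mCON and 1 for the rapamycin by genotype interaction at 9 months. Of all genes tested there, 554 of 12362, 419 of 12628 and 209 of 13159 passed. With limma on TPM the counts were 7 for 9mTSCmKO against 9mCON, 5 for rapamycin in 3mTSCmKO, 1 in 3mCON and 1 for that interaction. Of all 13543 genes tested, limma called 4567 for 9mTSCmKO against 9mCON, 2783 for rapamycin in 3mTSCmKO and 96 in 3mCON. DESeq2 gave 1 gene for 9mCON against 3mCON and 1 for rapamycin in 3mCON, where 375 and 171 of 13540 genes tested passed. With insert size as a term, 7 genes passed for 9mTSCmKO against 3mTSCmKO and 1 for the interaction at 9 months. Of 13537 genes tested in that fit, 1701 and 504 passed, respectively. With no filter on low counts, 0 passed for rapamycin in 9mCON and 1 for that interaction, where 1306 and 435 of 22597 genes tested passed. The cause was not tested.

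Leaving out 1 library at a time gave 8 to 14 genes for 9mTSCmKO against 9mCON, 1 to 4 for 3mTSCmKO against 3mCON, 0 to 1 for the genotype by age interaction, 0 to 1 for 9mCON against 3mCON and 7 to 14 for 9mTSCmKO against 3mTSCmKO. For rapamycin it gave 4 to 8 in 9mTSCmKO, 3 to 4 in 3mTSCmKO, 0 to 1 in 9mCON and 0 to 1 in 3mCON. The interactions gave 1 to 3 with genotype at 9 months, 2 to 2 at 3 months and 0 to 0 with age in CON.

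The labels give all groups replicate numbers 1 to 5. Deviations from the group means correlated at -0.422 to 0.509 for pairs of libraries with the same number and at -0.529 to 0.619 for other pairs, and 4 of 40 libraries correlated best with their own number, so that the numbers were not taken to pair samples. With a replicate block, 11 genes passed for 9mTSCmKO against 9mCON, 1 for 9mCON against 3mCON and 1 for rapamycin in 3mCON. Of 13543 genes tested in that fit, 5082, 142 and 90 passed, respectively.

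Each group had 5 libraries, and the calls of Pecam1 and Cdh5 depended on which of them were included. Labelled insert sizes differed between ages with little overlap, and 1 library had none. The median of all genes moved by over 0.1 in 1 case, limma on TPM for 9mCON against 3mCON (-0.10).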
